A study of Mus musculus with 6 samples.

Results

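The genes described here belong to the steps of beta-adrenergic signalling from receptor to kinase. They are 1 receptor (Adrb1), the stimulatory G protein (Gnas), 6 adenylyl cyclases and 1 protein kinase A catalytic subunit (Prkaca). The cyclases are Adcy1, Adcy4, Adcy5, Adcy6, Adcy7 and Adcy9, and which of them serve this signal in the heart was not tested. All 9 genes were taken by symbol, and each matched 1 row of the 49315 in the count table. The list was drawn up with results of the same comparison known, in which Adcy1 had passed the test, so the differences between genotypes in these 9 genes are a description and support nothing further. RNA was sequenced from 6 heart samples of C57BL/6 mice, 3 with the conditional Txnip C247S knock-in and 3 wild-type. The labels name MerCreMer, a recombinase that tamoxifen switches on, and 4-hydroxytamoxifen for both genotypes. The promoter of the recombinase, whether the wild-type hearts carried it, and the age and sex of the mice are not stated in the labels. Nor do the labels say whether the 3 samples of a genotype came from separate mice, so a heart below means 1 sample. Txnip binds reduced thioredoxin, and C247S replaces a cysteine used in that binding.

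Noradrenaline and adrenaline bind beta-adrenergic receptors, which activate the alpha subunit of the stimulatory G protein, and this in turn activates adenylyl cyclase. Cyclic AMP made by the cyclase releases the catalytic subunits of protein kinase A, which phosphorylate calcium-handling and contractile proteins of the heart muscle cell. The membrane-bound cyclases differ in their second regulators. Calcium with calmodulin stimulates Adcy1, Adcy3 and Adcy8, G protein beta-gamma subunits stimulate Adcy2, Adcy4 and Adcy7, and calcium inhibits Adcy5 and Adcy6, the forms best known in heart muscle.

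Library totals ran from 14146048 to 15620476 counts, and 12777 genes passed the filter on low counts. Txnip itself fell to 420 ± 25.0 CPM in knock-in hearts, against 752 ± 35.3 CPM in wild-type hearts (CPM, counts scaled to library size with TMM factors; SD, n = 3 each). The log2 fold change was −0.84 ± 0.09 (edgeR quasi-likelihood, adjusted p = 0.00379), and the call was lost without knock-in replicate 3 (adjusted p = 0.0642) or wild-type replicate 2 (adjusted p = 0.0525). A gene count shows the amount of this transcript and not the edited base. Knock-in replicate 2 and wild-type replicate 3 stood apart from the other libraries of their genotype. Chi-square per degree of freedom was 15.0 and 27.0 for knock-in pairs with replicate 2, against 7.45 for the other pair. It was 20.4 and 21.5 for wild-type pairs with replicate 3, against 7.16 for the other pair. Mitochondrially encoded genes took 28% of the counts of wild-type replicate 3, against 22.9% to 24.3% in the other libraries. Heart muscle genes such as Myh6 and Tnnt2 were abundant in all 6 libraries, and edgeR called 0 of the 8 listed cardiomyocyte markers. At an unadjusted p under 0.05 there were 2, or 25%, against 9.97% of all tested genes. They were Tnnt2, higher in knock-in hearts (log2 fold change 0.25 ± 0.08), and Nkx2-5, lower (−0.38 ± 0.14). The atrial markers were uneven, with 0 to 5 counts per library for Myl7, 0 to 4 for Sln and 0 to 3 for Bmp10, but 29 to 50 for Myl4 and 1485 to 8801 for Nppa.

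Adcy1, Prkaca and Adrb1 were the 3 genes whose knock-in and wild-type values did not overlap, and the 250 bases before their transcription starts are shown for that reason. The sequences are from RefSeq (GRCm38.p6, plus strand, 5′ to 3′), at chr11:7063183-7063432, chr8:83972728-83972977 and chr19:56721867-56722116. Capitals mark the E-box CACGTG and the short core of the cAMP response element, TGACG, or CGTCA on the other strand.
Adcy1: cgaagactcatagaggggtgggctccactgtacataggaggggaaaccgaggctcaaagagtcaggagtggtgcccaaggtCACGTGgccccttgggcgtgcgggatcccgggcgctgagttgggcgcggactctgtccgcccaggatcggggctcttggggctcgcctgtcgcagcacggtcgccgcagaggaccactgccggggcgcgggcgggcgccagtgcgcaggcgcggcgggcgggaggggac
Prkaca: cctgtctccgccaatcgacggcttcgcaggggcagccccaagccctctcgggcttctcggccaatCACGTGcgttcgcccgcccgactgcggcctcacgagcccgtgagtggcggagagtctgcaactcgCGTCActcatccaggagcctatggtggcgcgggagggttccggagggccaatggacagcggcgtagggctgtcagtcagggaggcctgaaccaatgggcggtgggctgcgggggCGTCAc
Adrb1: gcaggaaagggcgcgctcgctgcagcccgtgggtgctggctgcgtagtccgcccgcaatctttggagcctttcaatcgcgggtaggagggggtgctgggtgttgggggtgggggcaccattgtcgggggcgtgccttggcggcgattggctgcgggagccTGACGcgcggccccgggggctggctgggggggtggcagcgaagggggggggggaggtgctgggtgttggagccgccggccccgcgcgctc
The Adcy1 window held 1 E-box, which starts 169 bases before the transcription start, and no TGACG core. The Prkaca window shown held 1 E-box and 2 cores, while the window of its second start, at chr8:83976633-83976882, held neither. That of Adrb1 held 1 core and no E-box. Among all 27025 genes with such a window, 6.86% held CACGTG and 19.8% held TGACG on either strand. The full cAMP response element TGACGTCA was in none of these 3 windows and in those of 1.77% of genes. Of the 9 genes 8 had a window in the table, some with several starts, and Adcy1 and Prkaca were the ones with an E-box. The TGACG core was also in at least 1 window each of Gnas, Adcy7 and Adcy9, whose values overlapped between genotypes. These matches are letters in a window and not measured binding sites.

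Adcy1 rose in the knock-in hearts. The gene encodes a calmodulin-stimulated cyclase that is best known from brain (ENSMUSG00000020431, chromosome 11, 7063489 to 7178506, plus strand, GRCm38). It had 62, 67 and 48 counts in knock-in hearts, against 21, 23 and 19 counts in wild-type hearts. Every knock-in count lay above every wild-type count. The lowest knock-in count has an exact 95% Poisson interval of 35.4 to 63.6, and the highest wild-type count one of 14.6 to 34.5, which cover counting error only. In CPM the means were 3.91 ± 0.582 in knock-in and 1.45 ± 0.140 in wild-type hearts (SD, n = 3 each). The log2 fold change, knock-in over wild-type, was 1.43 ± 0.24 (SE), a 2.69-fold rise (edgeR quasi-likelihood, adjusted p = 0.0399 over all tested genes). Adcy1 was the 1 of the 9 genes called at an adjusted p under 0.05, a threshold that 0.297% of all tested genes passed, 0.11% higher and 0.188% lower. The fold change lay between 1.34 and 1.54 with any 1 library left out. The call held without knock-in replicate 2 (adjusted p = 0.0243) and was lost without each of the other 5 libraries. The adjusted p was then 0.0854 without knock-in replicate 1, 0.130 without knock-in replicate 3, and 0.162, 0.179 and 0.150 without wild-type replicates 1, 2 and 3. It was also lost with limma-voom (adjusted p = 0.0666), and over all alternatives the adjusted p ran from 2.73e-04 to 0.179.

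**Figure D1:**
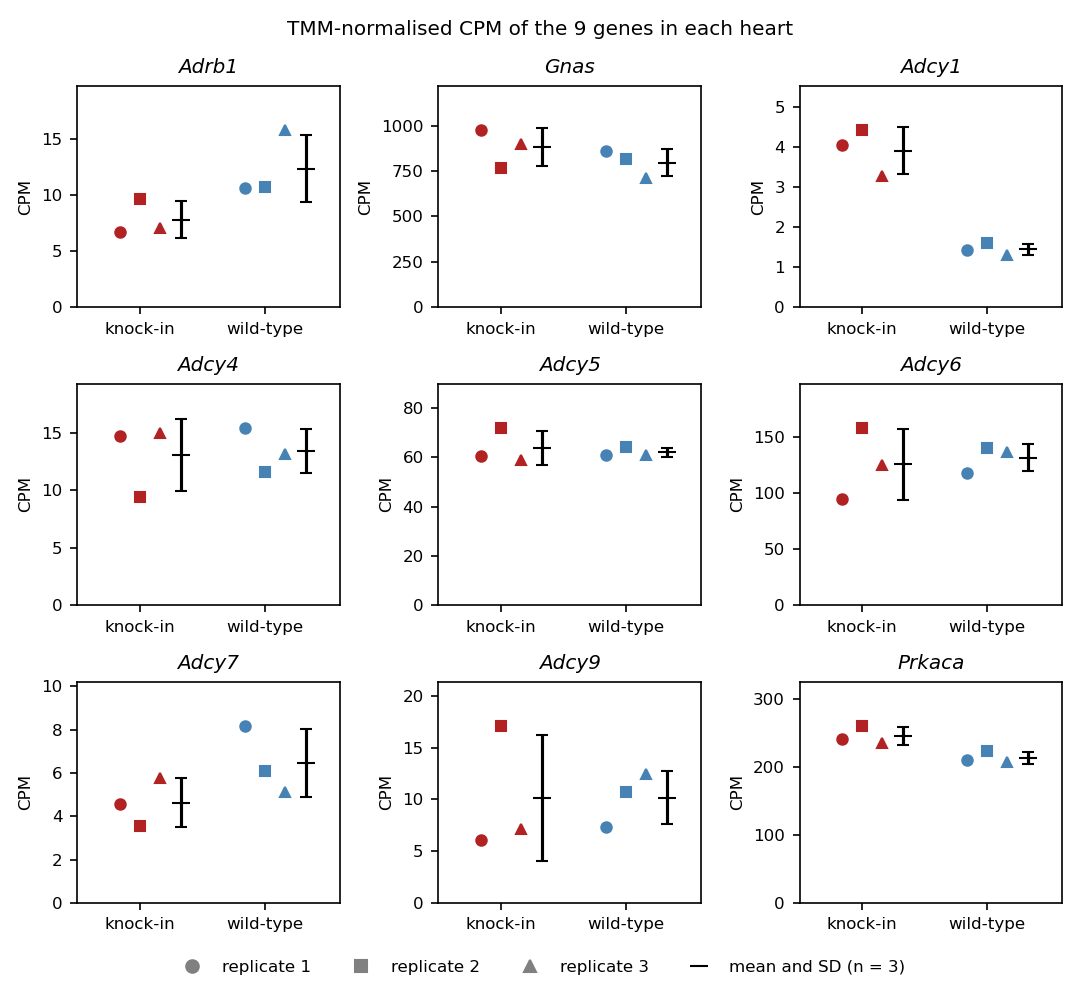
TMM-normalised CPM of the 9 genes, 1 panel each with its own axis from 0, with 1 point per heart and the mean and SD of each genotype (n = 3). Adcy1 is the panel with the widest gap, 3.27 to 4.41 CPM in knock-in against 1.31 to 1.59 CPM in wild-type hearts, and Adcy9 has 1 knock-in heart at 17.1 CPM.

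At the receptor step, Adrb1 was lower in every knock-in heart than in any wild-type heart but did not pass the test. Adrb1 encodes the main cardiac receptor for noradrenaline (ENSMUSG00000035283, chromosome 19, 56722199 to 56733113). It stood at 6.70, 9.68 and 7.09 CPM in knock-in hearts, against 10.6, 10.7 and 15.8 CPM in wild-type hearts. The nearest values of the genotypes, 9.68 and 10.6 CPM, were close, and wild-type replicate 3 was the highest. The log2 fold change was −0.66 ± 0.20 (edgeR adjusted p = 0.274), and without wild-type replicate 3 it was −0.44. Without a filter on low counts the adjusted p was 0.0171. Of the 9 genes 3 did not overlap between genotypes, where 16.1% of all tested genes did not.

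Gnas and Prkaca, the genes on either side of the cyclases in the pathway, did not pass the test. Gnas, the stimulatory alpha subunit (ENSMUSG00000027523, chromosome 2, 174284320 to 174346744), stood at 975, 767 and 900 CPM in knock-in hearts, against 858, 819 and 714 CPM in wild-type hearts. The groups overlapped, with a log2 fold change of 0.14 ± 0.11. Exons of the antisense gene Nespas cover 8.83% of the exon bases of Gnas, and those of Gm20721 on the same opposite strand cover 13.1%. Reads of these genes and of Gnas cannot be told apart where the strand setting of the count is not given. Prkaca, the catalytic alpha subunit of protein kinase A (ENSMUSG00000005469, chromosome 8, 83972993 to 83996443), stood at 242, 261 and 236 CPM in knock-in hearts, against 210, 224 and 208 CPM in wild-type hearts. All knock-in values were higher, but the log2 fold change of 0.21 ± 0.09 did not pass (adjusted p = 0.489).

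The cyclases of heart muscle, Adcy5 and Adcy6, had nearly equal means in both genotypes. Adcy5 (ENSMUSG00000022840, chromosome 16, 35154877 to 35305738) stood at 60.4, 71.9 and 59.0 CPM in knock-in hearts, against 61.1, 64.1 and 61.0 CPM in wild-type hearts. Its log2 fold change was 0.04 ± 0.11, which turned to −0.047 without knock-in replicate 2, the heart with the highest value, and to −0.0023 when scaled by library size alone. Adcy6 (ENSMUSG00000022994, chromosome 15, 98589973 to 98610076) stood at 94.5, 158 and 125 CPM in knock-in hearts, against 118, 140 and 137 CPM in wild-type hearts. The knock-in hearts held both its lowest and its highest value. The log2 fold change was −0.07 ± 0.17 and turned to 0.11 without knock-in replicate 1. Exons of the antisense gene Gm29331 cover 8.92% of the exon bases of Adcy6.

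Adcy4 and Adcy7, stimulated by beta-gamma subunits, did not pass the test either. Adcy4 (ENSMUSG00000022220, chromosome 14, 55769057 to 55784095) stood at 14.7, 9.42 and 15.0 CPM in knock-in hearts, against 15.4, 11.6 and 13.1 CPM in wild-type hearts. The summed CPM of 8 endothelial markers was 1234, 873 and 1173 in the same knock-in hearts, against 1209, 908 and 897 in the wild-type hearts. The 3 libraries with the highest Adcy4, knock-in replicates 1 and 3 and wild-type replicate 1, were also the 3 with the highest endothelial sum. Fabp4 alone gave 381 to 527 CPM of this sum in knock-in hearts, against 317 to 505 CPM in wild-type hearts. Fabp4, Pecam1, Cdh5, Tek, Tie1 and Emcn were highest in the same 3 libraries. Kdr and Egfl7 were not, with Kdr highest in wild-type replicate 3 (173 CPM). None of the 8 endothelial markers was called by edgeR, with 0 at an unadjusted p under 0.05, and the part of endothelial cells in the Adcy4 values was not tested. In bulk tissue, fewer cells of a type and less RNA per cell cannot be told apart. Adcy7 (ENSMUSG00000031659, chromosome 8, 88272403 to 88329962) stood at 4.55, 3.56 and 5.79 CPM in knock-in hearts, against 8.18, 6.09 and 5.12 CPM in wild-type hearts. Wild-type replicate 3 fell within the knock-in range, and the log2 fold change was −0.48 ± 0.24 (adjusted p = 0.547). The summed CPM of 11 macrophage and leukocyte markers was 217 to 233 in knock-in hearts, against 289 to 327 in wild-type hearts. Lyz2 alone gave 108 to 123 CPM of this sum in knock-in hearts, against 166 to 189 CPM in wild-type hearts. Of the 9 tested markers 8 had a negative log2 fold change, and Lyz2 was the 1 called. Ptprc was the 1 with a positive value (0.26 ± 0.27). At an unadjusted p under 0.05 there were 4, all lower in knock-in hearts, or 44.4% against 9.97% of all tested genes. The genotypes did not overlap in 5 of the tested markers, or 55.6%, against 16.1% of all tested genes. The log2 fold change of Cx3cr1, a macrophage chemokine receptor, was −1.17 ± 0.24 (edgeR adjusted p = 0.0966). The lymphocyte markers Cd3e and Cd79a had 0 to 5 counts per library. The part of these cells in the Adcy7 values was not tested.

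Adcy9, the membrane-bound cyclase that responds least to forskolin, had the highest coefficient of variation of the 9 genes in both genotypes. It stood at 6.05, 17.1 and 7.16 CPM in knock-in hearts, against 7.36, 10.7 and 12.4 CPM in wild-type hearts (ENSMUSG00000005580, chromosome 16, 4287529 to 4420498). Knock-in replicate 2 alone lay above 12.4 CPM. The coefficient of variation was 60.3% among knock-in and 25.2% among wild-type hearts, where Adcy5 had 11.2% and 2.80%. The log2 fold change was −0.0027 ± 0.40 with all hearts. Without knock-in replicate 2 it was −0.61 ± 0.22 (edgeR adjusted p = 0.210), the largest move with any 1 library left out. Leaving out another library gave values from −0.19 ± 0.45 (without wild-type replicate 1) to 0.27 ± 0.37 (without knock-in replicate 1).

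Levels were compared between genes as RPKM, which divides the CPM by the kilobases of merged exons. Prkaca averaged 92.4 ± 8.24 RPKM and Gnas 75.0 ± 8.34 RPKM (SD over all 6 hearts). Adcy6 followed with 19.0 ± 3.20 RPKM, Adcy5 with 8.76 ± 0.658 RPKM and Adrb1 with 2.99 ± 0.976 RPKM. Adcy4 averaged 2.83 ± 0.50 RPKM, Adcy9 1.95 ± 0.805 RPKM, Adcy7 0.824 ± 0.234 RPKM and Adcy1, the lowest, 0.214 ± 0.112 RPKM. Of the 8 pairs of neighbours in this order, 6 had the same sign in all 6 hearts. The order was taken from the same 6 libraries, so these counts are a description and no p is given for them. The level of Adcy6 was 2.15-fold that of Adcy5. Adrb1 was above Adcy4 in 3 of 6 hearts, with a mean log2 difference in RPKM of 0.04 ± 0.59 (SD), which is within its spread. Adcy4 was above Adcy9 in 5 of 6 hearts, with 0.61 ± 0.83, which is also within its spread. The order of Gnas and Prkaca depended on the length used. With the longest transcript in place of merged exons Gnas stood at 213 RPKM and Prkaca at 101 RPKM. The annotation lists 24 Gnas transcripts. The other ranks were the same with both lengths.

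**Figure D2:**
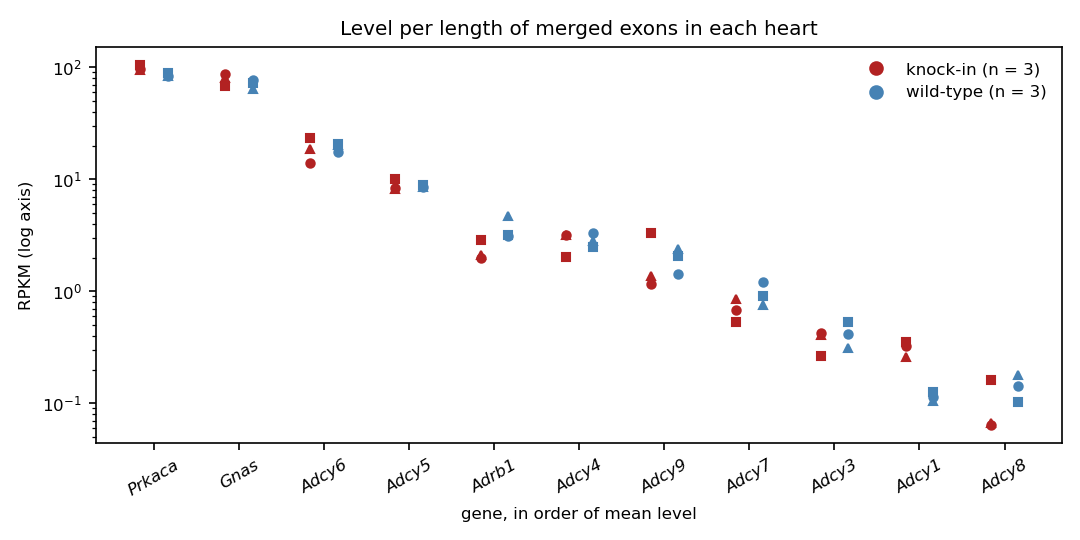
RPKM per heart on a log axis for the 9 genes and for Adcy3 and Adcy8, ordered by mean level, with knock-in hearts to the left and wild-type hearts to the right at each gene. Adcy6 and Adcy5 lie at 8.21 to 23.3 RPKM in all 6 hearts, and Adcy1 at 0.261 to 0.353 RPKM in knock-in against 0.105 to 0.127 RPKM in wild-type hearts.

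Adcy6 and Adcy5 made up most of the cyclase RNA in both genotypes. Together they made up 81.3% ± 2.02 of the summed RPKM of all 10 cyclase genes in knock-in and 81.2% ± 1.52 in wild-type hearts (SD, n = 3 each). Adcy1 made up 1.14%, 0.882% and 0.794% in knock-in hearts, against 0.351%, 0.356% and 0.298% in wild-type hearts. Its share did not overlap between genotypes and was a small part of the total in each. The 3 calmodulin-stimulated cyclases together took 2.89%, 1.95% and 2.23% in knock-in hearts, against 2.06%, 2.13% and 1.68% in wild-type hearts, and these ranges overlapped. Adcy3 had 41, 25 and 37 counts in knock-in hearts, against 38, 48 and 28 counts in wild-type hearts. Adcy8 had 8, 20 and 8 counts in knock-in hearts, against 17, 12 and 21 counts in wild-type hearts. Adcy2 and Adcy10, the soluble cyclase, had 0 to 3 and 0 to 1 counts per library and were not tested. The summed RPKM of all cyclases was 28.1, 40.0 and 32.9 in knock-in hearts, against 32.6, 35.8 and 35.3 in wild-type hearts.

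**Figure D3:**
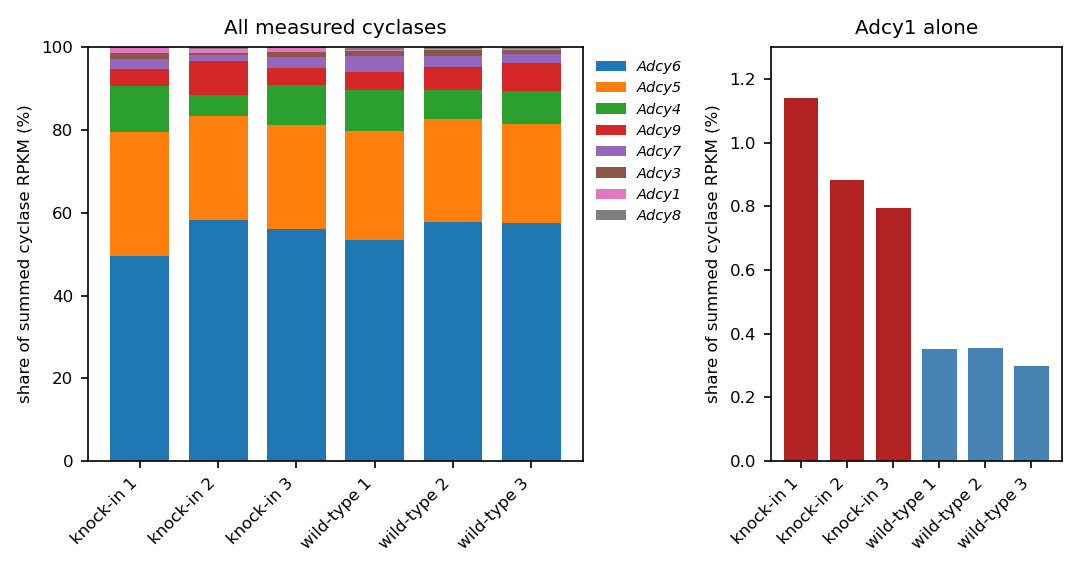
Left, share of the summed cyclase RPKM taken by each cyclase in each heart, as stacked bars, with Adcy2 and Adcy10 too low to draw. Right, the Adcy1 share alone on its own axis from 0, which runs between 0.794% and 1.14% in knock-in hearts, against 0.298% and 0.356% in wild-type hearts.

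Among 134 other genes of the pathway, grouped by role, none of the 115 tested was called by edgeR, DESeq2 or limma-voom. At an unadjusted p under 0.05 edgeR had 8 of them, 5 higher and 3 lower, or 6.96%, against 9.97% of all tested genes. Their median log2 fold change was 8.8e-05, against −0.0068 over all tested genes, and 58 were positive and 57 negative. The groups did not overlap in 11, or 9.57%, below the background of 16.1%.

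Of the receptors that act on adenylyl cyclase 11 of 23 were tested, with a median of 0.02. Of these, 6 were positive and 5 negative, and 0 had an unadjusted p under 0.05. Adrb3 had 0 to 5 counts per library. Among 6 tested G protein alpha subunits and chaperones the median was 0.09, and Gnai2, an inhibitory alpha subunit, had 0.25 ± 0.10. Gnai2 stood at 211, 199 and 201 CPM in knock-in hearts, against 176, 184 and 155 CPM in wild-type hearts, with no overlap. The 7 receptor kinases and arrestins had a median of 0.09, and Grk5 had the smallest p (0.34 ± 0.16).

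Downstream of cyclic AMP, the 8 other protein kinase A subunits and inhibitors had a median of −0.06. Pkig, an inhibitor of the kinase, stood at 179, 176 and 188 CPM in knock-in hearts, against 145, 163 and 134 CPM in wild-type hearts (log2 fold change 0.29 ± 0.10, edgeR adjusted p = 0.346). The 13 anchoring proteins had a median of −0.09, with Akap5 at −0.82 ± 0.34. Of the 15 tested phosphodiesterases, which break down cyclic nucleotides, 11 were negative and 4 positive, with a median of −0.05. Pde10a had 24, 10 and 15 counts in knock-in hearts, against 38, 28 and 32 counts in wild-type hearts (−1.05 ± 0.33, adjusted p = 0.284). These counts were low and did not overlap. Pde3a, Pde4b and Pde4d, forms known from heart muscle, had 0.24 ± 0.24, −0.03 ± 0.27 and −0.09 ± 0.34.

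Other cyclic AMP effectors, among them Rapgef3 and the Popeye proteins, had a median of −0.13 over 8 genes, of which 3 were positive and 5 negative. The 15 kinase substrates and phosphatase genes had a median of 0.04. Kcnq1, a potassium channel that the kinase regulates, stood at 38.4, 45.7 and 46.1 CPM in knock-in hearts, against 33.7, 35.6 and 34.6 CPM in wild-type hearts (0.33 ± 0.11, edgeR adjusted p = 0.336). Pln and Ryr2, classic substrates, had 0.05 ± 0.16 and −0.16 ± 0.22. The 8 genes of the CREB family and its coactivators had a median of 0.06, the smallest p being that of Crebbp (0.17 ± 0.16). The 10 tested calmodulin and calcium regulators had a median of 0.04, with Calm2 at 0.21 ± 0.09.

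**Figure D4:**
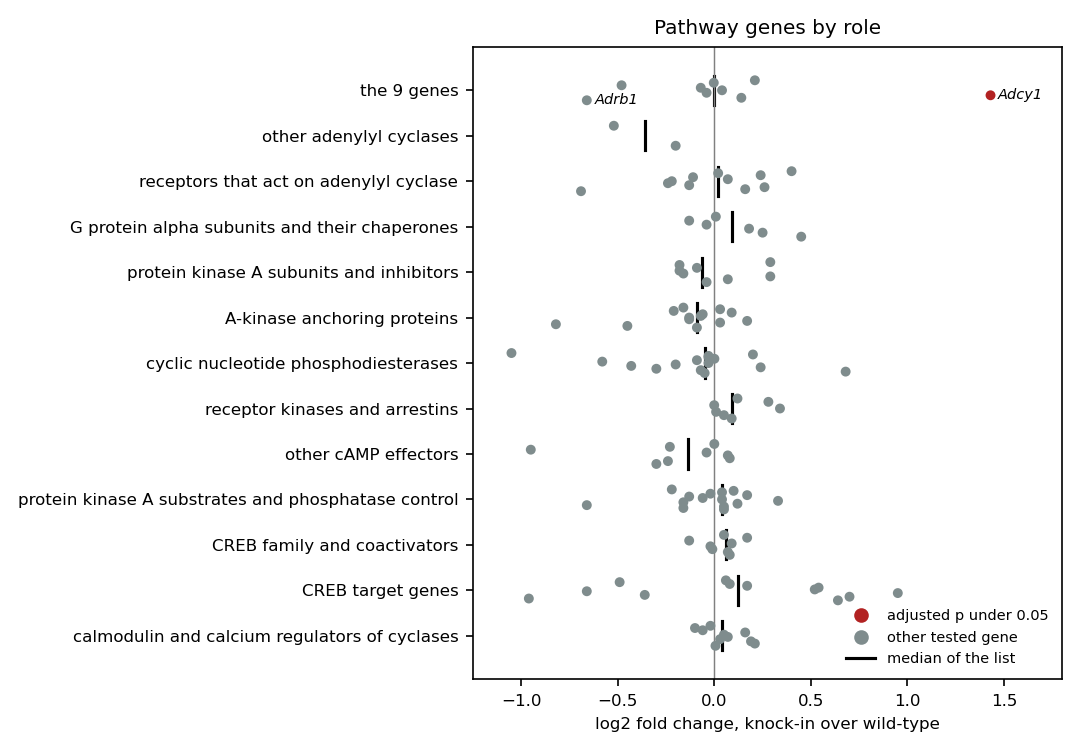
Log2 fold change, knock-in over wild-type, of each tested gene, with 1 row per role, a black bar at the median of each row and red for an adjusted p under 0.05. Adcy1 at 1.43 is the 1 red point, and the row medians lie between −0.36 and 0.12.

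Among targets of the CREB factor, immediate-early genes varied widely among hearts of 1 genotype. The median log2 fold change of the 12 tested targets was 0.12. Fos had 91, 444 and 108 counts in knock-in hearts, against 343, 375 and 74 counts in wild-type hearts. Knock-in replicate 2 had the highest value of all 6 hearts and wild-type replicate 3 the lowest. Fosb had 10, 239 and 5 counts in knock-in hearts, against 73, 45 and 8 counts in wild-type hearts. Its highest value was again in knock-in replicate 2, and wild-type replicate 3 was the lowest of its genotype. Sik1, a kinase gene that CREB induces, stood at 29.5, 48.4 and 26.2 CPM in knock-in hearts, against 25.6, 24.9 and 21.2 CPM in wild-type hearts (0.54 ± 0.21, edgeR adjusted p = 0.431). A fit without knock-in replicate 2 and wild-type replicate 3 was chosen after seeing the data. The libraries left out held the highest knock-in and the lowest wild-type value of Fos, Fosb, Egr1, Junb and Nr4a1. Leaving them out moved these genes towards lower in knock-in hearts in advance, so their calls in that fit support nothing further. For Rrad the libraries left out held the highest value of each genotype. Of 116 pathway genes tested in that fit, edgeR called 6, all lower in knock-in hearts: Egr1, Fos, Fosb, Junb, Nr4a1 and Rrad. Across all genes that fit of 4 libraries called 392 of 12881 tested genes, against 38 of 12777 with 6 libraries. Adcy1 had a log2 fold change of 1.28 ± 0.30 in the fit of 4 libraries.

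The genes nearest to Adcy1 across the 6 hearts included 3 of the 5 red blood cell markers. Likeness was the root mean square difference in log2 CPM, centred on each gene's mean over the 6 libraries, among 11524 named genes with a mean of at least 1 CPM. The measure contains the difference between genotypes, so it is a description and not independent of it. Nearest were Hba-a2 (0.121) and Hba-a1 (0.134), the alpha-globins, which are close copies. Fndc10 (0.159), Alas2 (0.207), which makes the first haem precursor in red cell forerunners, and Tent5c (0.222) followed. Hba-a2 stood at 127, 121 and 100 CPM in knock-in hearts, against 37.1, 48.5 and 42.7 CPM in wild-type hearts. Of the other 8 genes of the pathway described here, Prkaca was nearest, at rank 883 with 0.579, and Adrb1 farthest, at rank 11255 with 1.04.

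**Figure D5:**
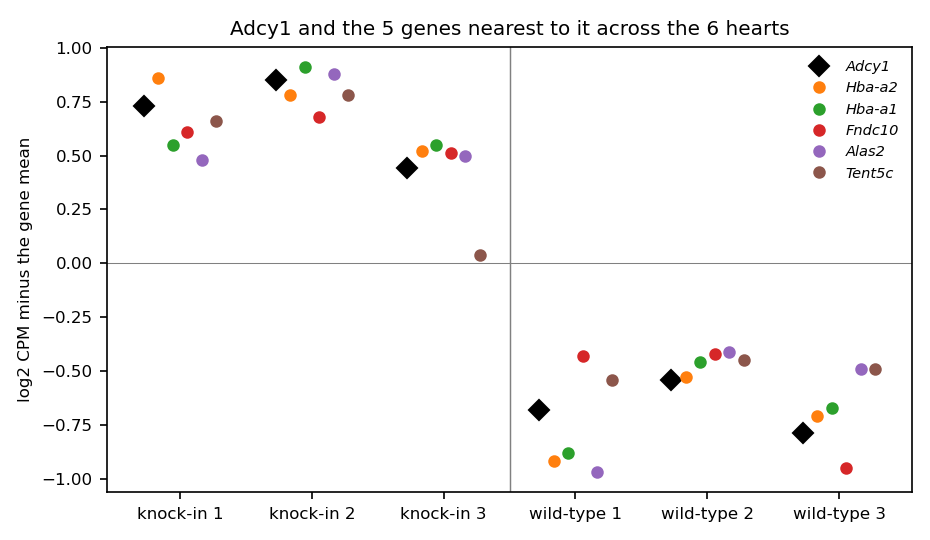
Log2 CPM minus the gene mean in each heart for Adcy1 (black diamonds) and the 5 genes nearest to it (circles), with knock-in hearts on the left and wild-type hearts on the right. Adcy1 lies at 0.44 to 0.85 in knock-in hearts, against −0.79 to −0.54 in wild-type hearts, and all 6 genes are above 0 in every knock-in heart and under 0 in every wild-type heart.

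Markers of other cells were set beside Adcy1. All 5 red blood cell markers were called higher, and their summed CPM was 1447, 1916 and 1476 in knock-in hearts, against 463, 629 and 635 in wild-type hearts. Without wild-type replicate 2, Hba-a1 and Hba-a2 were the 2 of these still called, and neither Lyz2 nor Adcy1 was. The part of red blood cell RNA in the Adcy1 difference was not tested. The summed CPM of 8 atrial markers was 601, 179 and 316 in knock-in hearts, against 234, 279 and 131 in wild-type hearts, with 0 of 5 tested markers called by edgeR. Nppa made up most of this sum, with 573, 151 and 286 CPM in knock-in hearts, against 207, 252 and 103 CPM in wild-type hearts. The part of atrial tissue in the Adcy1 values was not tested. Sinoatrial node markers summed to 91.8, 99.6 and 93.5 CPM in knock-in hearts, against 87.7, 101 and 83.7 CPM in wild-type hearts. Smoc2 made up most of this sum, with 57.2 to 61.5 CPM in knock-in hearts, against 50.9 to 70.4 CPM in wild-type hearts. Shox2 had 2 to 9 counts per library, and Isl1 and Vsnl1 had 0 counts in all 6 libraries. Neuron and Schwann cell markers summed to 4.84 to 6.98 CPM in knock-in hearts, against 4.91 to 6.44 CPM in wild-type hearts, and Th and Snap25 had 0 counts in all 6 libraries. A count of 0 allows up to 3 counts, or 0.192 to 0.212 CPM. At an unadjusted p under 0.05 there were 0 atrial, 0 sinoatrial and 0 neuronal markers. Fibroblast markers had 0 of 7 called by edgeR, with 0 at an unadjusted p under 0.05. The genotypes did not overlap in 2 of them, or 28.6%, against 16.1% of all tested genes. These were Dcn and Lum, both higher in knock-in hearts. Among 8 smooth muscle and pericyte markers Acta2 was the 1 called, lower in knock-in hearts.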

How the data were processed

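Gene expression was measured by RNA sequencing of 6 mouse heart samples, 3 Txnip C247S knock-in and 3 wild-type, grouped by the Txnip status in the labels. The deposited values are whole-number read counts per Ensembl gene with no normalization, in 1 table. The submitters' processing notes list GRCm38.p6 as the build, and as tools DESeq2, STAR, featureCounts and Subread 1.5.2, without saying which did what. Which annotation release was counted, whether strand was used and how reads with several matches were handled is not given in the sources used here. Symbols, positions and lengths came from GENCODE M21 (GRCm38), which held 49056 of the 49315 identifiers, and promoters from RefSeq.

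The test was the quasi-likelihood F test of edgeR 4.0.16 in R 4.3.3, fitted robustly on genotype alone after TMM scaling and filterByExpr. A gene was called where its p, adjusted by Benjamini-Hochberg over all 12777 tested genes, was under 0.05. Each SE was derived from F and the log2 fold change. No pair of replicates was alike within sampling noise (chi-square 7.16 to 27.0 per degree of freedom), and all 6 libraries were kept as separate replicates. The functions were tested on simulated counts. The genes described and all gene lists were chosen with earlier results of these data known. Named beside the 9 genes are, in each pathway list, the called genes or the gene with the smallest p, and the 5 genes nearest to Adcy1; some items that this rule names are not reported here. Others (Adcy2, Adcy3, Adcy10, Adrb3, Pde3a, Pde4b, Pde4d, Pln, Ryr2, Rapgef3, Fos, Fosb, Egr1, Junb, Nr4a1, Rrad and single markers) were added after their values were seen. Nothing in the labels says whether the 3 samples of a genotype came from separate mice, so p-values measure only the spread between these samples, which may be technical. Alternatives were other scalings and filters, DESeq2 1.42.0, limma-voom (limma 3.58.1), a fit without robust estimation, a fit without mitochondrially encoded genes, 1 library left out at a time, 4 libraries (without knock-in replicate 2 and wild-type replicate 3, chosen after seeing the data), and, for levels and shares, the longest transcript as length. The planned sign-flip test of the order of levels is not printed, because the order came from the same libraries.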

Additional observations from a re-analysis of the deposited data

How the results depend on the processing

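Of 22 named genes, Adcy1 kept its sign under all 16 alternatives, and Adrb1, Gnas, Adcy7, Prkaca and Txnip did too. With 1 library left out, Adcy4 ran from −0.15 to 0.16, turning positive without knock-in replicate 2 or wild-type replicate 1 (0.077). Adcy5 ran from −0.047 (without knock-in replicate 2) to 0.094, Adcy6 from −0.26 to 0.11 (without knock-in replicate 1), and Adcy9 from −0.61 to 0.27. Adcy9 was positive without knock-in replicates 1 (0.27) or 3 (0.19) and wild-type replicates 2 (0.036) or 3 (0.17), with RLE scaling (0.00051) and without a filter (0.0011). Adcy5 turned with library size alone (−0.0023). In the 4 libraries without knock-in replicate 2 and wild-type replicate 3, chosen after seeing the data, Adcy4 (0.14) and Adcy5 (−0.062) turned. The count of called genes was 38, but 317 without a filter, 131 with DESeq2, 18 with limma-voom, 392 in 4 libraries, and 5 (without wild-type replicate 2) to 174 (without knock-in replicate 2) with 1 library left out. Of the 9 genes, 2 were called without a filter (Adcy1 and Adrb1), 0 with limma-voom, and 0 to 1 with 1 library left out. Of the other pathway genes 2 of 132 tested were called without a filter (Junb and Sik1), 6 of 116 in 4 libraries, and 0 with any 1 library left out. Across all genes, 21655 were tested without a filter and 12881 in 4 libraries. The cause of these moves was not tested. The Adcy1 share in knock-in hearts, 0.940%, ran from 0.838% to 1.01% with 1 library left out. At the 19 to 67 counts of Adcy1 per library, depth limits the precision of its fold change. No paired analysis was possible because replicates were numbered by accession and no label pairs the hearts.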
